A study of Mus musculus with 8 samples.

Results

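Chondrocyte hypertrophy and osteogenic genes comprised 10 genes, *Col10a1*, *Ibsp*, *Spp1*, *Runx2*, *Runx3*, *Sp7*, *Mef2c*, *Ihh*, *Pthlh* and *Pth1r*, which were taken by symbol from the 54658 gene symbols of the RNA-Seq count table. The samples were primary articular chondrocytes that had been isolated from the femoral heads of wild-type mice at 3 weeks of age, of which 4 received IL-1β for 24 h at 1 ng/mL and 4 received vehicle. IL-1β is a proinflammatory cytokine that activates NF-κB. The comparison addressed how the chondrocyte transcriptome responds to it, here for the genes of hypertrophic and bone-forming differentiation. Sex and the pooling of animals or cultures were not given in the sources used here, so the p-values measure the spread between these samples, which may be technical. The total was 10992355 to 17104351 counts per sample with IL-1β and 13970959 to 17456063 with vehicle.

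In the growth plate, chondrocytes that leave the cell cycle enlarge and switch from type II to type X collagen before the cartilage mineralizes and is replaced by bone. RUNX2, together with RUNX3 and MEF2C, drives this step, and SP7 acts after RUNX2 in bone-forming cells. Indian hedgehog, secreted by prehypertrophic cells, and PTHrP, which acts through the receptor PTH1R, form a feedback loop that sets when cells enter hypertrophy. Permanent articular cartilage normally keeps this program low, and its appearance there is a known feature of osteoarthritis.

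Values are given as CPM, counts scaled to a common library total by TMM. Of the 10 genes, 8 passed the filter on low counts (CPM of the total before TMM above 1 in at least 4 samples). All 8 differed between IL-1β and vehicle in edgeR's quasi-likelihood test with an adjusted p-value under 0.05. Of these, 7 were lower and 1, *Spp1*, was higher after IL-1β. The same threshold was passed by 19.8% of the 14404 genes tested in the lower direction and by 20.4% in the higher direction, 40.2% in all. As DEGs, with a log2 fold change beyond 1 in size as well, 5 of the genes were called, all downregulated: *Ibsp*, *Col10a1*, *Mef2c*, *Pth1r* and *Sp7*. Downregulated DEGs made up 2.35% and upregulated DEGs 2.86% of all genes tested, or 5.21% together. The median log2 fold change of the 8 genes was -1.63, against 0.00 for all genes tested. *Ihh* and *Pthlh* did not pass the filter and were described by their counts. The IL-1β and vehicle samples did not overlap for any of the 10 genes, and among all genes tested the same held for 18.7% with higher and 18.2% with lower values after IL-1β, or 36.8% in either direction. Fewer cells of a type and less RNA per cell cannot be told apart in these bulk samples.

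**Figure D1:**
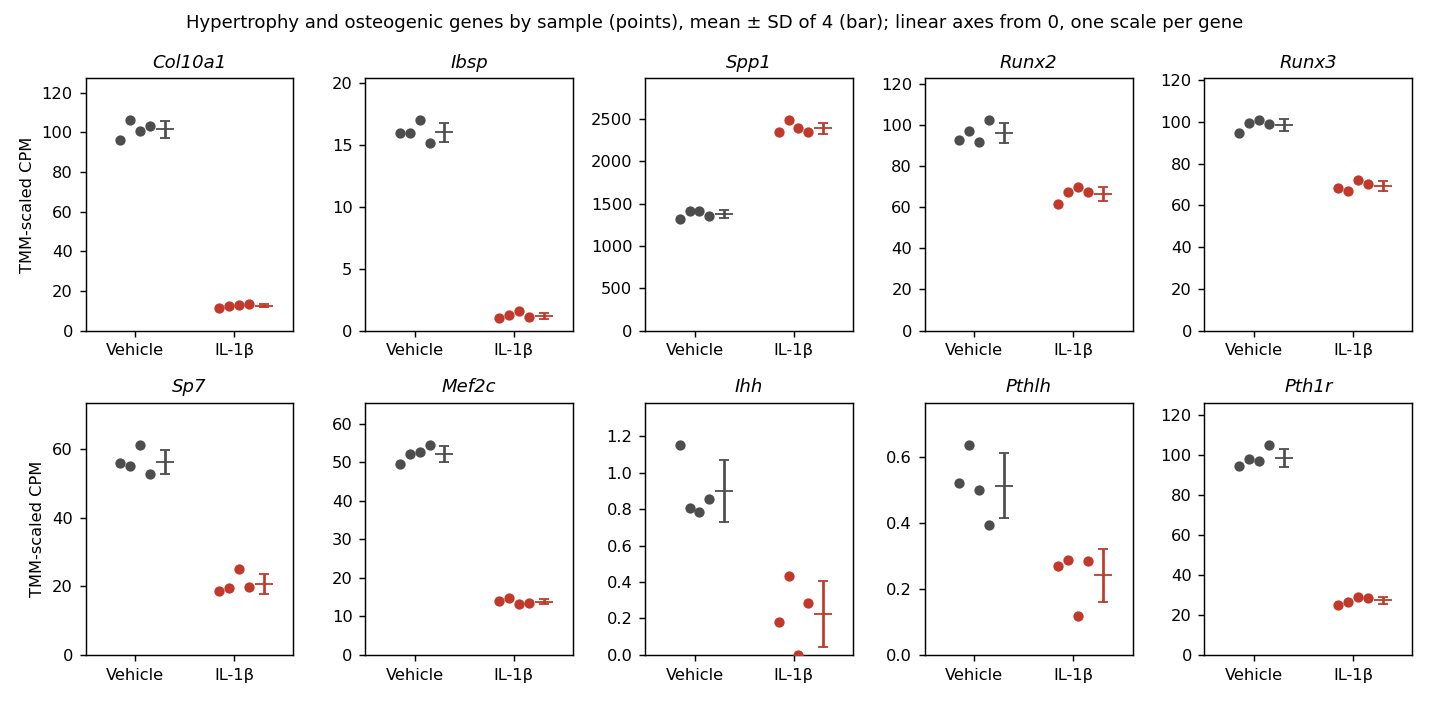
TMM-scaled CPM of the 10 genes in each sample (points, 4 vehicle and 4 IL-1β), with the mean ± SD beside them, on a linear axis from 0 for each gene. The groups did not overlap for any of the 10 genes, and *Spp1* alone was higher with IL-1β (2348 to 2484 CPM against 1314 to 1419 CPM).

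Among the matrix genes, *Ibsp* and *Col10a1* had the lowest log2 fold changes of the 10 and *Spp1* the only positive one. *Col10a1*, which encodes type X collagen, the defining matrix protein of hypertrophic cartilage, had 96.2, 106, 100.5 and 103 CPM in the vehicle samples. The IL-1β samples had 11.3, 12.6, 13.1 and 13.5 CPM. The 2 groups lay far apart, with the IL-1β mean at 12.4% of the vehicle mean. The log2 fold change was -2.996 (SE 0.0533, edgeR adjusted p = 9.44e-27), and 12 of the 14404 genes tested had a lower one. *Col10a1* (ENSMUSG00000039462.4) lies on chromosome 10 from 34389981 to 34397085 of GRCm38. It shares 18 of its 3130 exon bases with *Nt5dc1* on the opposite strand, which had a log2 fold change of -0.24.

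*Ibsp* encodes bone sialoprotein, an acidic phosphoprotein of mineralizing matrix. It had 15.98, 15.9, 16.97 and 15.1 CPM with vehicle, from 277, 276, 238 and 230 reads. With IL-1β it had 0.991, 1.23, 1.54 and 1.06 CPM, from 11, 17, 26 and 15 reads. Every IL-1β sample was below every vehicle sample by a wide margin. The log2 fold change was -3.69 (SE 0.134, edgeR adjusted p = 2.82e-19), a 13.3-fold difference of the means, and 4 of all genes tested had a lower log2 fold change. The 11 to 26 reads per IL-1β sample limited the precision of this value.

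*Spp1*, which encodes osteopontin, a secreted phosphoprotein of the same family as bone sialoprotein that is also made by macrophages and osteoclasts, was by far the most abundant of the 10 genes. The vehicle samples had 1314, 1409, 1419 and 1356 CPM and the IL-1β samples 2348, 2484, 2394 and 2348 CPM. All IL-1β samples thus lay above the vehicle samples. The log2 fold change was 0.80 (SE 0.0289, edgeR adjusted p = 2.23e-19), a 1.74-fold rise of the mean, so that *Spp1* passed the test without being a DEG. Of its exon bases, 18.8% are shared with *Gm42793*, a gene that the annotation lists as awaiting experimental proof, on the same strand, which went from 4.44 to 9.41 CPM.

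The log2 ratio of *Spp1* to *Ibsp* (CPM, each with 0.5 CPM added) describes how far these 2 genes moved apart in each sample. The ratio was 6.32 to 6.44 in the vehicle samples and 10.2 to 10.6 in the IL-1β samples, a difference of 4.08. Since *Spp1* was higher and *Ibsp* lower in every IL-1β sample, the ratio had to separate the groups, and no test is given. Expressed as reads, vehicle samples had 82.2 to 89.7 reads of *Spp1* for each read of *Ibsp*, and IL-1β samples had 1550 to 2369. The 2 genes lie in a cluster of 5 related genes on chromosome 5 (*Dspp*, *Dmp1*, *Ibsp*, *Mepe* and *Spp1*), where *Ibsp* lies from 104299171 to 104311469 and *Spp1* from 104435118 to 104441050 on the same strand, 123.6 kb apart. The other cluster genes, named after their values were seen, were close to absent, with 1 read of *Dmp1* in all vehicle samples together and 1 in all IL-1β samples, 1 and 0 reads of *Dspp*, and 2 and 1 reads of *Mepe*.

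The promoters of these matrix genes are shown because the genes share a place in the same program and yet moved in opposite directions. Sequences are from RefSeq on GRCm38, plus strand, and end at the base before the RefSeq transcript start for *Spp1* (chr5:104434861-104435110) and *Col10a1* (chr10:34389731-34389980). For *Ibsp* the short stretches around an inverted CCAAT box (chr5:104299228-104299242) and an inverted TATA box (chr5:104299254-104299269) are given. Capitals mark matches to the RUNX core TGTGGT with ACCACA as its form on the other strand, the CCAAT box and the TATA box TATAAA, searched on both strands.
*Spp1*: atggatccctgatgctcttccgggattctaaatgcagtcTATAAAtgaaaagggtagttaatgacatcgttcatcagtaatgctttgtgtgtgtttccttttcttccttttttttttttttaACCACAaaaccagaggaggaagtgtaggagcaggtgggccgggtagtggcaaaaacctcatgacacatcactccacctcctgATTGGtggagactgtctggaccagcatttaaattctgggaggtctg
*Col10a1*: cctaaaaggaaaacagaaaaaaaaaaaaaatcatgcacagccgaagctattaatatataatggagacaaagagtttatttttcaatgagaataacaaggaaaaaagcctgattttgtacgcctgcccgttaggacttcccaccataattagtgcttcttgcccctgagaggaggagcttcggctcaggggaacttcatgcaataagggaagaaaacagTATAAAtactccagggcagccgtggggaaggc
*Ibsp*, CCAAT box: ctgtgATTGGctgtt
*Ibsp*, TATA box: aagggTTTATAgtcag

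The RUNX core of *Spp1* lies at -128 to -123 from the RefSeq start, and neither *Col10a1* nor *Ibsp* has these letters in the 250 bases before its start. The TATA box letters lie far from the RefSeq start in *Spp1*, at -211 to -206. In *Col10a1* they lie at -32 to -27 and in *Ibsp* at -28 to -23. Variants of the TATA box letters were not searched. Of the 9 genes with a RefSeq promoter, *Runx2*, *Runx3* and *Spp1* have the RUNX core, in 3 of the 15 windows of these genes, and 14.0% of all 32851 RefSeq promoter windows of this length have it. The AP-1 site TGANTCA was found in 1 window, of *Mef2c* (6.75% of all windows), the MEF2 site in 1 window, of *Pth1r* (2.92% of all windows), and the NF-κB site before none of the 9 genes (3.90% of all windows). The CCAAT box was found in 7 of the 15 windows (5 genes) and the TATA box in 5 (4 genes), where 33.8% and 12.4% of all windows have them. Windows of the same gene are not independent. No motif overlapped another among the genes described, and a match of letters does not show that a factor binds.

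Among the transcription factors, *Mef2c* and *Sp7* were DEGs, and *Runx2* and *Runx3* passed the test with smaller differences. *Mef2c*, a MADS-box factor needed for hypertrophy, had 49.4, 52.2, 52.7 and 54.5 CPM in the vehicle group and 14.0, 14.7, 13.1 and 13.5 CPM in the IL-1β group. Its values were closely spaced within each group, and the log2 fold change was -1.92 (SE 0.0561, edgeR adjusted p = 1.41e-21). The gene lies on chromosome 13 from 83504034 to 83667080. *Sp7*, a zinc finger factor of osteoblasts that is also called osterix, had 56.0, 55.1, 61.3 and 52.9 CPM in the vehicle group and 18.6, 19.6, 25.1 and 19.9 CPM in the IL-1β group. IL-1β replicate 3 was the highest of its group and still less than the lowest vehicle sample, and the log2 fold change was -1.42 (SE 0.0658, edgeR adjusted p = 9.07e-17). It lies on chromosome 15 from 102356606 to 102367182.

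*Runx2*, the master regulator of osteoblasts and of chondrocyte hypertrophy, had 92.8, 97.3, 91.6 and 102 CPM in the vehicle group and 61.8, 67.2, 69.9 and 67.4 CPM in the IL-1β group. Its paralog *Runx3* had 94.4, 99.5, 100.6 and 99.1 CPM in the vehicle group and 68.1, 67.0, 72.3 and 70.2 CPM in the IL-1β group. Both were lower in every IL-1β sample than in any vehicle sample, at 69.4% and 70.5% of the vehicle mean. The log2 fold change of *Runx2* was -0.52 (95% confidence interval -0.61 to -0.44, edgeR adjusted p = 3.17e-11), and that of *Runx3* was -0.50 (-0.58 to -0.42, edgeR adjusted p = 6.23e-12). The ratio of *Runx2* to *Runx3* was not shown to differ between the groups, with a difference of -0.02 on the log2 scale (two-sided exact permutation p = 0.629, and 0.629 after Benjamini-Hochberg adjustment over 3 pairs of genes, *Spp1* with *Ibsp* included). *Runx2* lies on chromosome 17 from 44495987 to 44814797 and *Runx3* on chromosome 4 from 135120652 to 135177990. The antisense gene *Runx2os1* shares 5.87% of the exon bases of *Runx2* and had 1.59 CPM in the vehicle group and 1.28 CPM in the IL-1β group.

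**Figure D2:**
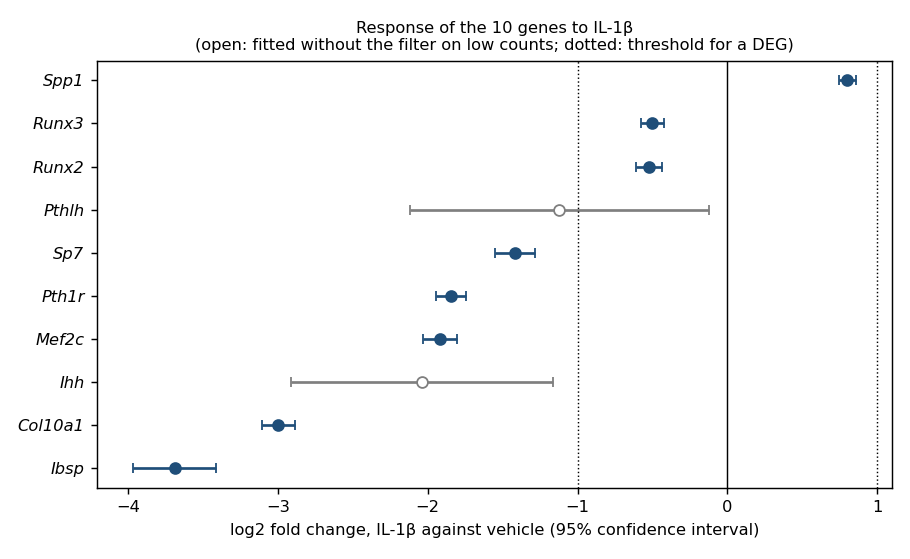
Log2 fold change of the 10 genes between IL-1β and vehicle from edgeR with its 95% confidence interval (filled points: genes that passed the filter; open points: *Ihh* and *Pthlh*, fitted without the filter; dotted lines: the threshold for a DEG). The values run from -3.69 for *Ibsp* to 0.80 for *Spp1*, with *Runx2* and *Runx3* between the threshold and 0.

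In the hedgehog and PTHrP loop, the receptor fell and the ligands were near the limit of detection. *Pth1r*, the G protein-coupled receptor of PTHrP and parathyroid hormone, had 94.2, 97.9, 96.7 and 104.9 CPM in the vehicle group and 25.0, 26.3, 29.1 and 28.4 CPM in the IL-1β group. The groups were separated by a wide gap, with a log2 fold change of -1.85 (SE 0.0488, edgeR adjusted p = 1.27e-22), and 78 of the genes tested had a lower one. It lies on chromosome 9 from 110722085 to 110747145 and shares 95 exon bases (3.25%) with *Myl3* on the opposite strand, which had 0.323 CPM in the vehicle group and 0.0728 CPM in the IL-1β group.

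*Ihh*, the hedgehog ligand of prehypertrophic cells, was counted in 20, 14, 11 and 13 reads in the vehicle samples and in 2, 6, 0 and 4 reads in the IL-1β samples. These groups did not overlap in CPM (0.784 to 1.154 against 0 to 0.433 CPM; two-sided exact permutation p = 0.0286, the lowest value possible for groups of 4). The gene lies on chromosome 1 from 74945315 to 74951672. Taken as sums, 58 and 12 reads gave a ratio of 0.236 to vehicle (95% exact confidence interval 0.116 to 0.445, for counting error only). Fitted without the filter, the edgeR log2 fold change of *Ihh* was -2.04 (edgeR adjusted p = 5.62e-05). *Pthlh*, which encodes PTHrP, was counted in 9, 11, 7 and 6 reads with vehicle and in 3, 4, 2 and 4 reads with IL-1β. Its groups did not overlap in CPM either (0.394 to 0.636 against 0.119 to 0.288 CPM; two-sided exact permutation p = 0.0286), but without the filter edgeR gave an adjusted p of 0.125 at a log2 fold change of -1.12. The sums of 33 and 13 reads gave a ratio of 0.450 to vehicle (95% exact confidence interval 0.217 to 0.878). *Pthlh* lies on chromosome 6 from 147252101 to 147264183.

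The log2 ratio of *Pthlh* to *Pth1r* (0.5 CPM added to each) was higher with IL-1β by 1.39 (two-sided exact permutation p = 0.0286). Adjusted over the 3 pairs, this exact permutation p was 0.0429. That adjustment counts the ratio of *Spp1* to *Ibsp*, which had to separate the groups, so no conclusion is drawn from it. With the ratio of *Pthlh* to *Pth1r* taken from read counts, where the added constant weighs less, the difference was 0.83 (exact permutation p = 0.114). A change of ligand relative to receptor was thus not shown at this depth.

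Levels between genes were compared per length, as TMM-scaled CPM per kilobase of exons. The length was that of all annotated exons of a gene together. The order depends on these lengths, and the transcript forms present were not examined. With vehicle the order was *Spp1* (834 ± 29.7, SD, n = 4), *Pth1r* (33.7 ± 1.56), *Col10a1* (32.4 ± 1.33), *Runx3* (19.7 ± 0.551), *Sp7* (16.6 ± 1.05), *Runx2* (10.9 ± 0.549), *Ibsp* (7.74 ± 0.367), *Mef2c* (3.32 ± 0.133), *Pthlh* (0.316 ± 0.0611) and *Ihh* (0.295 ± 0.0562). Neighbors in this order did not overlap, except *Pth1r* with *Col10a1* and *Pthlh* with *Ihh*. With IL-1β, *Runx3* (13.9 ± 0.472) came next after *Spp1* (1453 ± 38.9), and *Col10a1* moved from the third to the sixth place (4.03 ± 0.314), after *Pth1r* (9.30 ± 0.648), *Runx2* (7.54 ± 0.386) and *Sp7* (6.12 ± 0.856). *Mef2c* (0.879 ± 0.0437) and *Ibsp* (0.583 ± 0.119) followed, ahead of *Pthlh* (0.148 ± 0.0503) and *Ihh* (0.0735 ± 0.0597), and here *Runx2* overlapped with *Sp7* and *Pthlh* with *Ihh*. Among all genes tested, the level of *Spp1* ranked 32nd with vehicle and 20th with IL-1β, while *Col10a1* went from rank 1248 to 7560 and *Ibsp* from 5044 to 12868. The summed level of the 9 genes other than *Spp1* was 120.4 to 127 with vehicle and 39.8 to 45.5 with IL-1β.

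**Figure D3:**
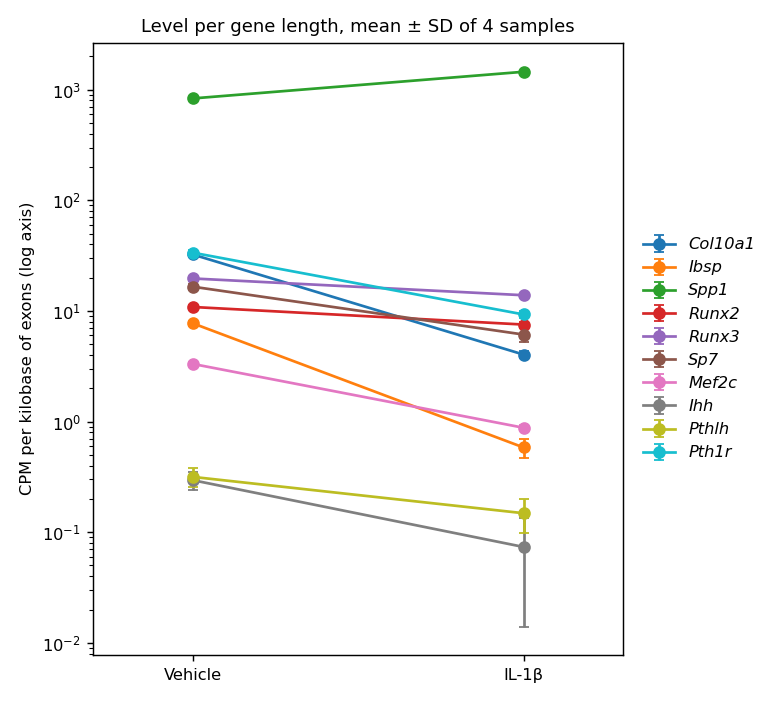
Level of the 10 genes per gene length (CPM per kilobase, log axis) with vehicle and IL-1β, as mean ± SD of 4 samples. *Spp1* rose from 834 to 1453, while the lines of *Col10a1* and *Ibsp* cross those of genes that fell less, such as *Runx3* and *Mef2c*.

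Further genes of the same programs were examined as lists defined by function. Among all genes tested, 20.4% were higher and 19.8% lower with an adjusted p-value under 0.05. Upregulated DEGs made up 2.86% and downregulated DEGs 2.35% of all genes tested, and these shares apply to each list below. Of 21 products of hypertrophic cartilage and bone, 14 passed the filter, 2 were higher and 10 lower with an adjusted p-value under 0.05, and the median log2 fold change was -0.63. Upregulated DEGs numbered 1 and downregulated DEGs 6. *Mmp13*, the collagenase of hypertrophic cartilage that is also induced by inflammation, rose from 32.1 ± 2.10 CPM (SD, n = 4) to 211 ± 4.94 CPM (log2 fold change 2.71, edgeR adjusted p = 1.02e-28). The downregulated DEGs were *Omd* (osteomodulin, log2 fold change -2.64), *Panx3* (a channel protein of prehypertrophic cells, -1.64), *Bglap* and *Bglap2* (osteocalcin genes, -1.62 and -1.10), *Tnfsf11* (the osteoclast factor RANKL, -1.17) and *Col1a2* (a type I collagen chain, -1.10). *Bglap*, *Bglap2* and *Bglap3* are near-identical copies, so their split of the reads is uncertain, and *Tnfsf11* was no DEG without IL-1β replicate 2 (log2 fold change -0.93). *Col1a1*, the gene closest to 0 of this list, had 90.1 ± 3.38 CPM in the vehicle group and 83.9 ± 5.83 CPM in the IL-1β group (edgeR adjusted p = 0.0761).

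Of 23 transcriptional partners and antagonists of these factors, 20 passed the filter (median log2 fold change -0.08). With an adjusted p-value under 0.05, 5 were higher and 7 lower (20.4% and 19.8% of all genes tested), and 8 did not pass the test. The DEGs were *Dlx3* (-1.50) and *Dlx5* (-1.40), homeobox genes of bone formation, and *Sox9* (-1.37), the chondrocyte factor that restrains hypertrophy. *Dlx3*, with 9 to 29 reads per IL-1β sample, was not called by glmTreat (adjusted p = 0.143) and did not pass a filter on every sample, which left 2 DEGs in the list. *Hdac5*, a repressor of MEF2 and RUNX2, was the closest to 0 (log2 fold change 0.04). Named after their values were seen, the RUNX2 paralog *Runx1* rose from 41.8 ± 0.801 CPM to 76.4 ± 2.97 CPM (0.87, edgeR adjusted p = 1.57e-16), in the opposite direction to *Runx2* and *Runx3*, and the shared RUNX partner *Cbfb* fell (-0.42). The MEF2 repressor *Hdac7*, chosen in the same way, rose (0.98, edgeR adjusted p = 4.44e-13).

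Of 15 genes of hedgehog and PTHrP signaling, 10 passed the filter, and the median log2 fold change was -0.26. With an adjusted p-value under 0.05, 3 were higher and 5 lower (20.4% and 19.8% of all genes tested). *Fgfr3*, a receptor that limits growth plate chondrocytes, fell from 138.9 ± 6.06 CPM to 25.3 ± 2.35 CPM (-2.45, edgeR adjusted p = 1.92e-25). *Gli1*, a transcription factor that is itself a hedgehog target, fell from 2.38 ± 0.274 CPM to 0.729 ± 0.333 CPM (-1.63, edgeR adjusted p = 5.49e-06), and it did not pass a filter asking for more than 1 CPM in each of the 8 samples. *Ptch1*, a hedgehog receptor and likewise a target gene, named after its values were seen, rose slightly (0.28, edgeR adjusted p = 3.36e-06). *Hhip*, of the same list and named in the same way, fell (-0.73, edgeR adjusted p = 3.00e-04). *Disp1*, which releases hedgehog ligands, had 44.9 ± 1.25 CPM in the vehicle group and 45.0 ± 4.20 CPM in the IL-1β group.

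Of 9 receptors of osteopontin and bone sialoprotein, 7 passed the filter (median log2 fold change -0.08). With an adjusted p-value under 0.05, 3 were higher and 4 lower (20.4% and 19.8% of all genes tested). *Cd44*, which also binds hyaluronan, was the DEG of the list, with 114 ± 6.49 CPM in the vehicle group and 325 ± 13.8 CPM in the IL-1β group (log2 fold change 1.51, edgeR adjusted p = 5.66e-23). *Itgb1*, the common β1 integrin chain, was the closest to 0 (-0.08).

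**Figure D4:**
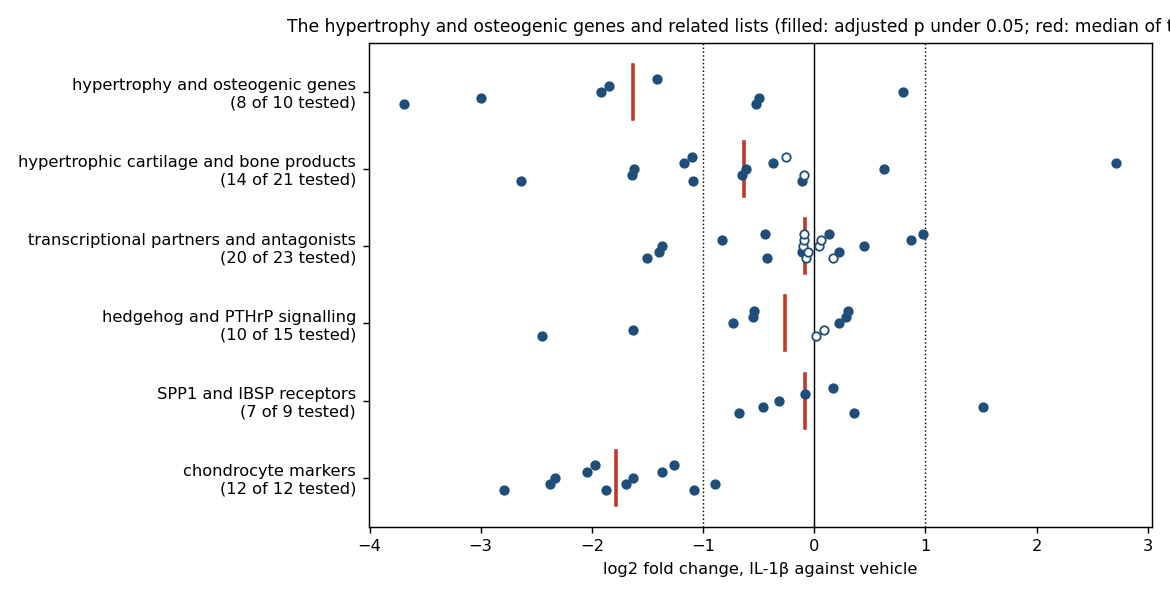
Log2 fold change (IL-1β over vehicle) for genes that passed the filter in the 10 hypertrophy and osteogenic genes, in 4 related lists and among chondrocyte markers (filled: adjusted p-value under 0.05; red bars: median; dotted lines: the threshold for a DEG). The medians of the first and the last group, -1.63 and -1.78, lie below -1, while those of the other lists lie between -0.63 and -0.08.

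Chondrocyte markers were abundant and fell with these genes. The summed CPM of 12 markers was 16876 to 17526 with vehicle and 4428 to 4849 with IL-1β. Of the 12, 11 were downregulated DEGs (median log2 fold change -1.78), against 2.35% of all genes tested. The markers of macrophages, which also express *Spp1*, summed to 11.9 to 14.1 CPM in the vehicle group and 16.6 to 19.9 CPM in the IL-1β group. Of these 11 genes 2 passed the filter, *Cd68* (9.48 and 14.99 CPM) and *Lyz2* (1.86 and 1.24 CPM), *C1qb* had 0 reads in every sample, and the defining marker *Adgre1*, like other markers of low level given here, was named after its values were seen and had 2 reads in all vehicle samples together and 5 in all IL-1β samples. The 8 osteoclast markers summed to 109.9 to 111.7 CPM in the vehicle group and 132.5 to 138.8 CPM in the IL-1β group. *Ctsk* made up nearly all of this sum (109.1 and 134.5 CPM), *Dcstamp* had 0 reads in every sample, and *Acp5* had 0.580 and 0.498 CPM. The part of these cells in the rise of *Spp1* was not tested. The 8 osteoblast and osteocyte markers summed to 155.1 to 164.4 CPM in the vehicle group and 113.9 to 128.8 CPM in the IL-1β group. Of these, 4 passed the filter, and 3 were lower with an adjusted p-value under 0.05 (19.8% of all genes tested). They were *Bglap*, *Bglap2* and *Alpl* (40.8 and 25.9 CPM, log2 fold change -0.65), while *Col1a1* did not pass the test. *Sost* had 0 reads in every sample. The part of osteoblasts and osteocytes in the fall of *Ibsp* and *Sp7* was not tested. The 5 synovial fibroblast markers summed to 6.12 to 7.43 CPM in the vehicle group and to 27.2 to 29.99 CPM in the IL-1β group, nearly all of it *Pdpn*. The 5 muscle markers, none of which passed the filter, summed to 1.85 to 2.83 CPM with vehicle and to 0.360 to 0.772 CPM with IL-1β, and the groups did not overlap. *Tnnt3*, the most abundant of them, had 94 reads in all vehicle samples together and 5 in all IL-1β samples (log2 fold change -3.93 without the filter), *Myh1* had 0 reads in every sample, and the part of muscle RNA in the fall of the 7 lower genes was not tested. Endothelial (at most 1.25 CPM) and erythroid markers (at most 1.80 CPM) were near 0 in sum, and their groups overlapped.

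The genes whose pattern over the 8 samples was closest to that of *Spp1*, by the root mean square difference of centered log2(CPM + 0.5), were *Cast* (the calpain inhibitor calpastatin, log2 fold change 0.77), *Abca1* (a cholesterol exporter, 0.80) and *Cyp1b1* (a cytochrome P450 enzyme, 0.76), at differences of 0.0388 to 0.0411. For *Ibsp* they were *Pgm5* (log2 fold change -3.80), *Smoc2* (a secreted calcium-binding protein, -3.17) and *Col27a1* (a fibrillar collagen of cartilage, -3.16), at differences of 0.129 to 0.201.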

How the data were processed

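RNA-Seq covered 8 samples, 4 with IL-1β and 4 with vehicle. The authors removed adapters by cutadapt, mapped the reads to mm10 (GENCODE vM20) by STAR and obtained gene counts from featureCounts (tools per the methods and the submitters' processing notes, which differ in the version of STAR). The counts they deposited are whole numbers for each gene symbol and are unscaled. Whether these counts precede or follow the study's RUVseq correction, and whether counting used strand, is not given in the sources used here. The authors also deposited each gene's length (unit: other, in bases), which served to compare levels per length. Labels name no batch. The 10 genes and the related lists were chosen with earlier results of these data known.

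Counts were scaled by TMM (factors 0.984 to 1.01) and tested by edgeR 4.0.16 (limma 3.58.1, R 4.3.3) with treatment as the only term over 14404 genes, and p-values were adjusted over all of them by Benjamini-Hochberg. Standard errors are the log2 fold change divided by the square root of F. At these totals 3 counts equal 0.172 to 0.273 CPM, and filters on CPM likewise used the totals before TMM. Intervals of log2 fold changes were built from these standard errors and the t distribution, and they include the spread between samples. The exact intervals of the *Ihh* and *Pthlh* ratios reflect counting error alone: the reads carry no molecular identifiers and are no independent molecules. On simulated counts edgeR and DESeq2 1.42.0 each recovered 100% of 200 changed genes, with 0 false calls. The changed genes were drawn above a minimum level, with changes well beyond the threshold for a DEG and the same dispersion for every gene. Recovery of genes with low counts, or with a log2 fold change close to that threshold, was therefore not tested. Within a group, counts of sample pairs differed by more than sampling noise (chi-square per degree of freedom 1.98 to 6.34). Vehicle replicate 4 gave the highest values, 6.34 with vehicle replicate 1 and 6.24 with vehicle replicate 2. All other pairs were at 3.26 or less, and the cause was not tested. Positions came from GENCODE vM21 (GRCm38). RefSeq promoters, of which 9 of the 10 genes had at least 1 (15 windows), were searched over 250 bases before the start. Other values used Python 3.11.15, scipy 1.17.1 and pandas 2.3.3, and figures matplotlib 3.10.9.

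The genes named are the 10 genes, all DEGs of the related lists with the most and the least changed gene of each, the most abundant cell type markers, annotated genes that overlap the 10 genes, and the 3 genes most alike in pattern to the genes with the highest and the lowest log2 fold change. Other genes were named after their values were seen, among them *Dmp1*, *Dspp*, *Mepe*, *Adgre1*, *Lyz2*, *C1qb*, *Acp5*, *Dcstamp*, *Alpl* and *Sost*. Alternatives were DESeq2, its size factors or total counts in place of TMM, other filters or none, a block for the replicate number, 1 factor by the RUVs procedure, glmTreat, other pseudocounts, and each sample left out in turn.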

Additional observations from a re-analysis of the deposited data

Results flagged for a closer look

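In 3 of 48 groups of 4 values (the 10 genes, the DEGs of the related lists and the total counts, with each treatment), the highest or lowest sample lay farther from the others than Dixon's 95% critical value allows, where chance flags about 1 group in 20, or 2.4 here. In IL-1β replicate 3, *Pthlh* was at 0.119 CPM, from 2 reads, and its group otherwise spanned 0.270 to 0.288 CPM. In vehicle replicate 3, *Dlx5* was at 24.96 CPM, and its group otherwise spanned 20.1 to 20.4 CPM. In IL-1β replicate 2, *Tnfsf11* was at 0.433 CPM, and its group otherwise spanned 1.13 to 1.19 CPM.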

How the results depend on the processing

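The log2 fold changes of the 8 genes that passed the filter kept their sign in all 136 values from 17 alternatives each, and 133 of these kept their side of the threshold. The exceptions came from glmTreat, which tests against a log2 fold change of 1 by construction: *Spp1* (0.80), *Runx2* (-0.52) and *Runx3* (-0.50) had an adjusted p of 1, so that 5 of the genes passed. The number of DEGs among the 10 genes was 5 under the alternatives other than a lack of filter and filterByExpr, where *Ihh* made it 6. With samples left out in turn, *Ibsp* lay between -3.85 and -3.62, *Col10a1* between -3.03 and -2.95 and *Sp7* between -1.53 and -1.37. The ratio of *Runx2* to *Runx3* turned from -0.02 to values up to 0.00312 without IL-1β replicate 1 (0.00230) or vehicle replicate 4 (0.00312), with -0.0566 as the lowest value. The ratio of *Pthlh* to *Pth1r* was 0.83 from counts (exact permutation p = 0.114). *Disp1* turned from 0.01 to -0.0167, -0.0225 and -0.00518 without IL-1β replicate 2, IL-1β replicate 3 and vehicle replicate 1, with 0.0655 as the highest value. In the hedgehog list, 1 DEG in place of 2 was left with a CPM above 1 in all 8 samples and with glmTreat. The list of transcriptional partners had 2 to 4 DEGs in place of 3, with 2 under the same settings. Products of hypertrophic cartilage and bone had 5 to 8 DEGs in place of 7 over the alternatives. Without a filter 635 genes were upregulated and 571 downregulated DEGs, in place of 412 and 339. With a CPM above 1 in all samples 266 were upregulated, and with glmTreat 262 and 175. By CPM without gene length, 2 of the 10 genes with vehicle and 6 with IL-1β kept their place in the order of levels. With single vehicle samples left out, 8 to 10 kept it, since *Pthlh* and *Ihh* changed places without replicate 2. Outside glmTreat, 11 of the 51 other list genes crossed the threshold or changed sign under some alternative. The cause of these changes was not tested.

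The labels number the replicates 1 to 4 in both groups without saying that a number marks a shared animal or day, and deviations from the group means correlated at -0.0689 to 0.0353 between same-numbered samples and at -0.0787 to 0.0846 between the others. A replicate block in the fit gave 411 upregulated and 340 downregulated DEGs, and 5 of the 10 genes were DEGs and 8 passed the test. The mean difference within same-numbered pairs equals the difference of the group means by arithmetic. The 4.08 for the ratio of *Spp1* to *Ibsp*, given as a description, is therefore no check on pairing. The difference in the ratio of *Pthlh* to *Pth1r* (1.39) had p = 0.125 in the exact permutation test within pairs, the smallest that 4 pairs allow. With 3 samples against 4 no exact p under 0.0571 is possible, so values with a sample left out carry no test for these ratios, *Ihh* and *Pthlh*. Depth limits *Ihh* and *Pthlh*, with at most 20 and 11 reads per sample. At a pseudocount of 1 CPM, chosen after the data were seen, their log2 differences were -0.64 and -0.29 (exact permutation p = 0.0286 for both), against -0.98 and -0.45 at 0.5 CPM.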
